A study of Mus musculus with 8 samples.

Results

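Genes whose symbol begins with Rnf and a digit were taken from the deposited count table, and 85 of its 21983 gene symbols met that rule. The libraries were made from AML-12 cells, an established line of mouse hepatocytes. The 4 control libraries carried pLKO.1, a lentiviral backbone, and were labelled wild type. The other 4 libraries came from cells labelled as overexpressing Gm47544, and their titles name no vector. The labels gave no clone, time point or passage, and whether the 4 libraries of each group were separate cultures is not stated, so the p-values speak only of library-to-library variation, possibly technical. The title of the series concerns Gm47544 and ubiquitinated hepatic APOC3, and the comparison here asked which Rnf transcripts differed between the groups. Gm47544 itself was not analysed here.

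RING finger proteins hold a zinc-binding fold that docks a ubiquitin-conjugating enzyme, the E2, and brings it to a substrate, so most of them act as the E3 ligases that choose what is ubiquitinated. The name Rnf reflects that fold and not a common ancestor or pathway: the genes include histone ligases, membrane ligases of the endoplasmic reticulum, endosome and cell surface, RING-between-RING ligases that carry ubiquitin on their own cysteine, and a cullin subunit. In hepatocytes such ligases are known for the control of sterol enzymes, Wnt receptors and antiviral signalling.

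Library totals ran from 11016907 to 18965662 counts. The first principal component of all genes tested (82.5% of the variance) put control library 3 at -22.2, with scores of -60.7 to -50 for the remaining controls and 43.5 to 50.4 for overexpression. Of the 12 hepatocyte markers listed, 9 passed the count filter, and Hnf4a, a hepatocyte transcription factor, was at 348 and 310 CPM (CPM is the count scaled to library size; means of control and overexpression), while Ass1 and Ahsg had 2 and 3 control counts and none in overexpression libraries. The summed hepatocyte markers were at 1954 to 2506 CPM in the controls against 1220 to 1289 CPM in overexpression libraries, but single markers went both ways. Of the 9, 3 rose and 4 fell: Ttr, which made up most of the control sum, went from 1321 to 279 CPM, while Alb went from 22.3 to 267 CPM, Apob from 145 to 244 CPM and Fgb from 0.46 to 3.48 CPM. Summed cholangiocyte markers were at 2788 to 4139 and 4475 to 5076 CPM, where Spp1 rose from 943 to 2731 CPM, Krt19 fell from 2253 to 1702 CPM, Sox9 fell from 91.3 to 57.9 CPM, Krt7 did not pass and Epcam had 1 count in all. Macrophage markers, mostly Csf1r, were at 26.8 to 32.7 and 9.94 to 13.2 CPM with Adgre1 and Clec4f at 0. Fibroblast markers were at 3.81 to 5.52 and 10.3 to 17.5 CPM with Lum, Col1a2 and Lrat at 0, and endothelial markers at 0.125 to 0.536 and 1.29 to 2.18 CPM. The part of these markers in the results below was not tested, and in bulk RNA fewer cells of a type and less RNA per cell cannot be told apart.

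Rnf transcripts went both ways, about as often as other genes did, but with few large changes. Of the 85 genes, 77 had at least 1 count and 62 passed the count filter. By the quasi-likelihood test of edgeR, p-values adjusted by Benjamini-Hochberg over all 11520 genes tested and called under 0.05, 21 rose and 18 fell in the overexpression libraries, 62.9% of the 62, against a background of 64.4% called among all genes. The 21 that rose were 33.9% (background 32.3%) and the 18 that fell 29% (background 32.1%), so neither share stood far from that of all genes. At least 2-fold changes were called for 3 members upwards, Rnf24, Rnf32 and Rnf20 (background 11.5%), and for 0 downwards (background 9.02%), where Rnf130 and Rnf187 came closest. With the trend on exon length removed, as given below, the log2 fold changes of those 3 were 1.10, 0.89 and 0.76. Rnf32 and Rnf20 were then under 2-fold, while Rnf220 was at -1.16. The control and overexpression values did not overlap for 34 members, against 56% of all genes tested. The median log2 fold change of the 62 was 0.15, against 0.000406 over all genes, and the median size of the change without its sign was 0.425 against 0.53. The 85 genes together took 0.386 ± 0.0157% of control counts and 0.4275 ± 0.00131% of overexpression counts (SD, n = 4; two-sided exact permutation test, p = 0.029, the smallest that 4 against 4 allow). With scaled library sizes the difference was 0.0056 percentage points (exact permutation p = 0.286), so the difference in share did not pass on the scaled sizes.

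**Figure D1:**
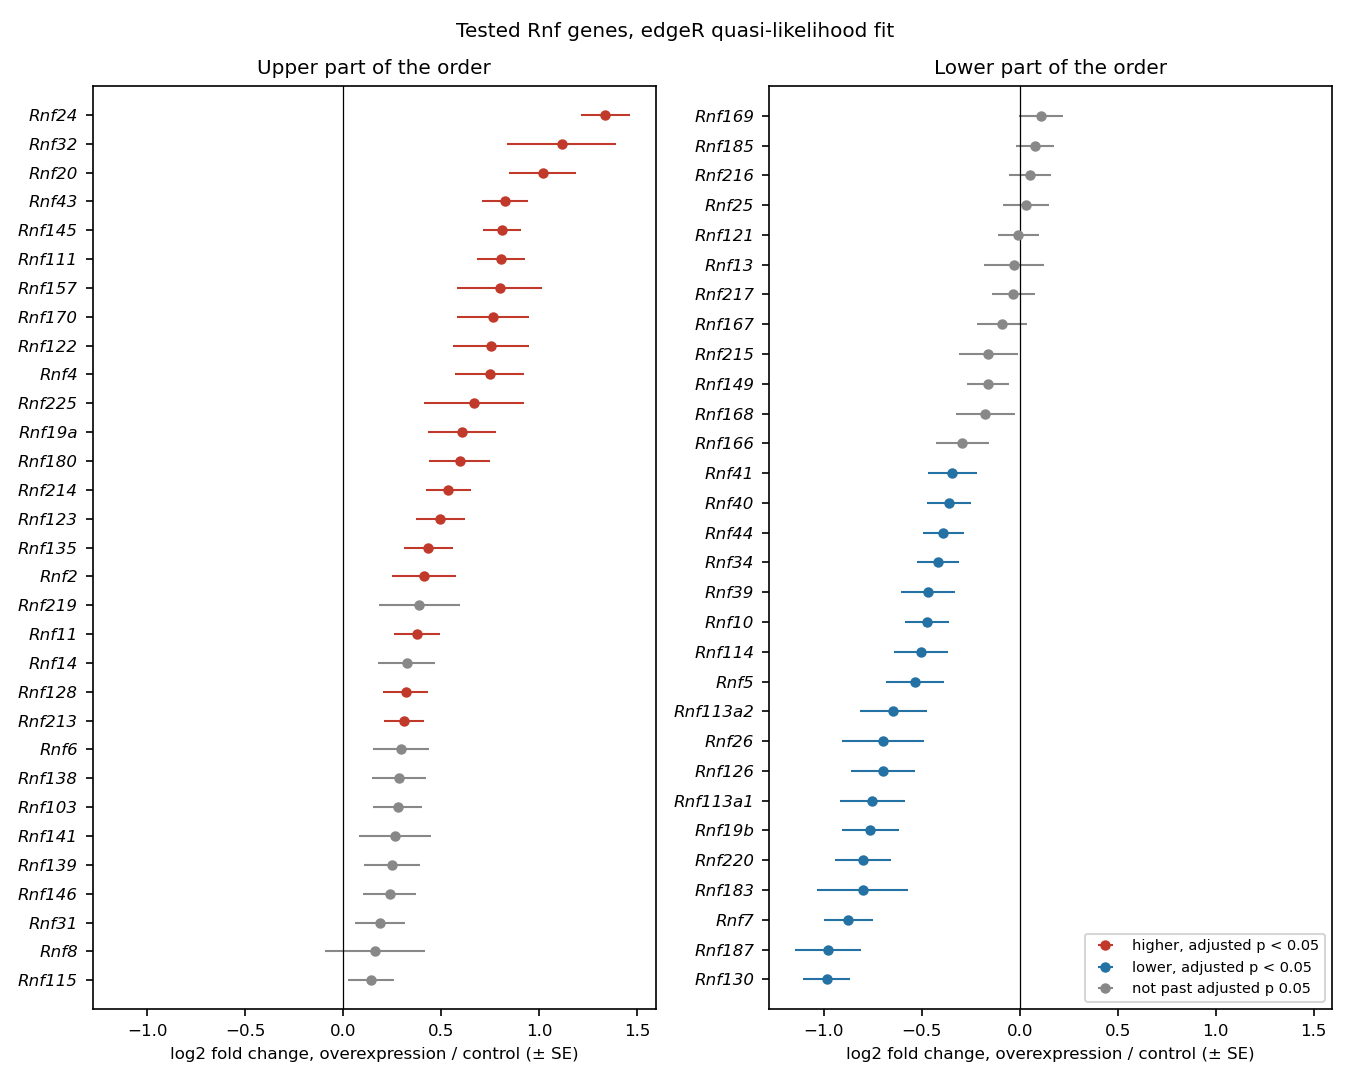
Log2 fold change of 61 of the 62 tested Rnf genes, overexpression over control, with its standard error (horizontal axis), in order of size. Red points rose and blue points fell at an adjusted p below 0.05; Rnf24 is the highest at 1.34 and Rnf130 the lowest at -0.98.

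The genes at both ends of this order are introduced here by the DNA just before their start, since each is a called gene whose groups did not overlap. The stretches are the 120 bases upstream of the RefSeq start (GRCm38.p6), for the 3 genes with the highest and the 3 with the lowest log2 fold change among called genes whose RefSeq start lay within 100 bases of the GENCODE start. Capitals mark any match, on either strand, to the motifs searched: the SP box GGGCGG, the CCAAT box CCAAT, the TATA box TATAAA, the E-box CACGTG, the CRE TGACGTCA, the ETS core CCGGAA, the AP-1 motif TGANTCA and the NRF1 palindrome. The first 3 are of genes that rose and the last 3 of genes that fell.
Rnf24 (chr2:131352893-131353012, minus strand): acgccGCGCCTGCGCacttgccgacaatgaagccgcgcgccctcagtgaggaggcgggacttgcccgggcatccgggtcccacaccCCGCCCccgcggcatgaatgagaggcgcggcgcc
Rnf32 (chr5:29195873-29195992, plus strand): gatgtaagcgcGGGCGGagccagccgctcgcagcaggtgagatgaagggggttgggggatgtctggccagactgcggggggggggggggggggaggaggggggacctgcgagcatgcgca
Rnf145 (chr11:44518836-44518955, plus strand): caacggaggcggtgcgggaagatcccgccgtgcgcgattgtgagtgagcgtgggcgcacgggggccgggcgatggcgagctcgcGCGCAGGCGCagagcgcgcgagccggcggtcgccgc
Rnf130 (chr11:50025211-50025330, plus strand): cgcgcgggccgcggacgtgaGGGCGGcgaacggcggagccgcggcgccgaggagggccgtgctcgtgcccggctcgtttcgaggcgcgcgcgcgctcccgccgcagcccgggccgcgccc
Rnf187 (chr11:58938907-58939026, minus strand): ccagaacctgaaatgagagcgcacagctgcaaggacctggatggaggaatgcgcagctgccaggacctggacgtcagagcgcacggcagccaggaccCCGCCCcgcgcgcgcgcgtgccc
Rnf7 (chr9:96478676-96478795, minus strand): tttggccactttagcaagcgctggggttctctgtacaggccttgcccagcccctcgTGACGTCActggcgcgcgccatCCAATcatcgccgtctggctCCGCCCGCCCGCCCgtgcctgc
These stretches held between 8 and 29 CpG dinucleotides, and Rnf7 was the only one of the 6 with a CRE or a CCAAT box. Over the whole 300-base windows (250 bases before to 50 after a start), RefSeq entries matched 66 of the 85 genes, and an SP box was present for 14 of the 16 genes that rose and had an entry, 12 of the 16 that fell and 69.1% of all tested genes with one. The NRF1 motif was present for 4 of the 16 that rose, 2 of the 16 that fell and 12% of all tested genes, and a CRE for 0, 1 and 3.8%. Of the 18 members not called that had an entry, 15 had an SP box and 3 the NRF1 motif. Among all genes called higher and lower, an SP box was present for 67.1% and 69.7%. Some SP box matches overlap each other, and a match describes the letters only.

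Per kilobase of exon, Rnf187 was the most abundant member in controls and Rnf128 in overexpression libraries. Averaged over all 8 libraries, the highest levels were 135 CPM per kilobase for Rnf187, 99.9 for Rnf128, 48.9 for Rnf126, 46.2 for Rnf7 and 45.5 for Rnf5. Rnf187 (RACO-1, a coactivator of the AP-1 transcription factor; chromosome 11, 58932288 to 58938916, GRCm38, minus strand) went from 179 CPM per kilobase in controls to 90.9 in overexpression libraries, and Rnf128 (GRAIL, a membrane ligase known from T cell anergy; chromosome X, 139563316 to 139673145, plus strand) from 88.9 to 111. The next 3 lay close together in controls, at 60.5, 59.8 and 53.9 CPM per kilobase for Rnf126, Rnf7 and Rnf5, and all of these fell. Of the 62 tested genes, 54 averaged at least 10 CPM and 11 at least 100 CPM.

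Among histone and DNA repair ligases the subunits of 1 heterodimer moved apart. Of 10 members, 4 rose and 3 fell, near the shares of all genes (32.3% and 32.1%), with a median log2 fold change of 0.14. With the trend on exon length removed 4 were higher and 1 lower. Rnf20 and Rnf40 form the ligase that monoubiquitinates histone H2B. Rnf20 (chromosome 4, 49632006 to 49656887, plus strand) was at 50.4, 47.9, 83.4 and 47.2 CPM in control libraries 1 to 4 and at 118, 117, 111 and 118 CPM in overexpression libraries 1 to 4. Every overexpression value was above every control value, with control library 3 the nearest. On the log2 scale Rnf20 rose by 1.02 (SE 0.17, edgeR adjusted p = 2.20e-04), or by 0.76 with the trend on exon length removed. Rnf40 (chromosome 7, 127588767 to 127604799, plus strand) was at 117, 121, 99.7 and 136 CPM in the controls against 93.3, 93.5, 90.8 and 91.2 CPM in overexpression libraries, lower in all 4. It fell by 0.36 on the log2 scale (SE 0.11, adjusted p = 0.0131), a call lost with scaling by library totals alone (adjusted p = 0.0668).

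Rnf4 and Rnf111, which read SUMO chains and ubiquitinate SUMO-modified proteins, both rose. Rnf111 was at 39.7, 38.2, 53.2 and 41.6 CPM in the controls against 74.2, 74.6, 75.3 and 77.7 CPM in overexpression libraries (log2 fold change 0.81, SE 0.12, adjusted p = 1.14e-04, and 0.43 with the trend on exon length removed). Rnf4 was at 92.2, 93.7, 156 and 82.8 CPM in the controls against 168, 174, 186 and 185 CPM in overexpression libraries (log2 fold change 0.75, SE 0.17, and 0.49 with that trend removed). For Rnf4 the control library nearest to the overexpression range was again library 3. Rnf2, the catalytic subunit of Polycomb complex 1, rose by 0.41 on the log2 scale (SE 0.16, adjusted p = 0.0399) with overlapping groups, and this call was lost when any library but control library 3 was left out (adjusted p 0.0638 to 0.101). Rnf113a1 and Rnf113a2, near-identical copies tied to splicing and alkylation repair whose reads may be shared, had log2 fold changes of -0.75 and -0.64, and both calls were lost with the trend on exon length removed (-0.088 and -0.073, adjusted p = 0.615 and 0.761). Rnf8 and Rnf168, which build the ubiquitin mark at DNA breaks, and Rnf169, which reads it, did not pass, with log2 fold changes of 0.16, -0.18 and 0.11, and 13.2% of the Rnf8 exon bases lie in another gene of the table.

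The known partners of these ligases went both ways, where 32.3% of all genes rose and 32.1% fell. Of the 17 listed partners in histone H2B ubiquitination and the break response, 9 rose and 3 fell (52.9% and 17.6%), with a median log2 fold change of 0.43. Usp22, which removes ubiquitin from histones, rose from 113 ± 4.39 to 192.5 ± 7.19 CPM (SD, n = 4) and Trp53bp1, which binds the mark at breaks, from 38.9 ± 11 to 92.5 ± 2.29 CPM. Their log2 fold changes were 0.77 and 1.25, or 0.71 and 0.61 with the trend on exon length removed. Picked out after their values were seen, Wac, Leo1 and Rtf1, which work with the Rnf20 and Rnf40 ligase on transcribed genes, had log2 fold changes of 0.78, 0.87 and 0.60, and Mdc1 and H2afx, which recruit Rnf8, of -0.42 and -0.69 (H2afx -0.067, no longer called, with the trend on exon length removed). Paf1, Ctr9 and Cdc73 of the same list did not pass (0.22, 0.32 and 0.28). With that trend removed Cdc73 was at -0.48 (adjusted p = 0.00128), and Wac, Leo1 and Rtf1 were at 0.62, 0.83 and 0.46. Of the 21 Polycomb partners of Rnf2, 5 rose and 7 fell (23.8% and 33.3%). Phc3 was at a log2 fold change of 1.26 and L3mbtl2 at -0.81 (0.51 and -0.99 with the trend on exon length removed). With the trend on exon length removed, 6 of the Polycomb partners were higher and 11 lower.

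**Figure D2:**
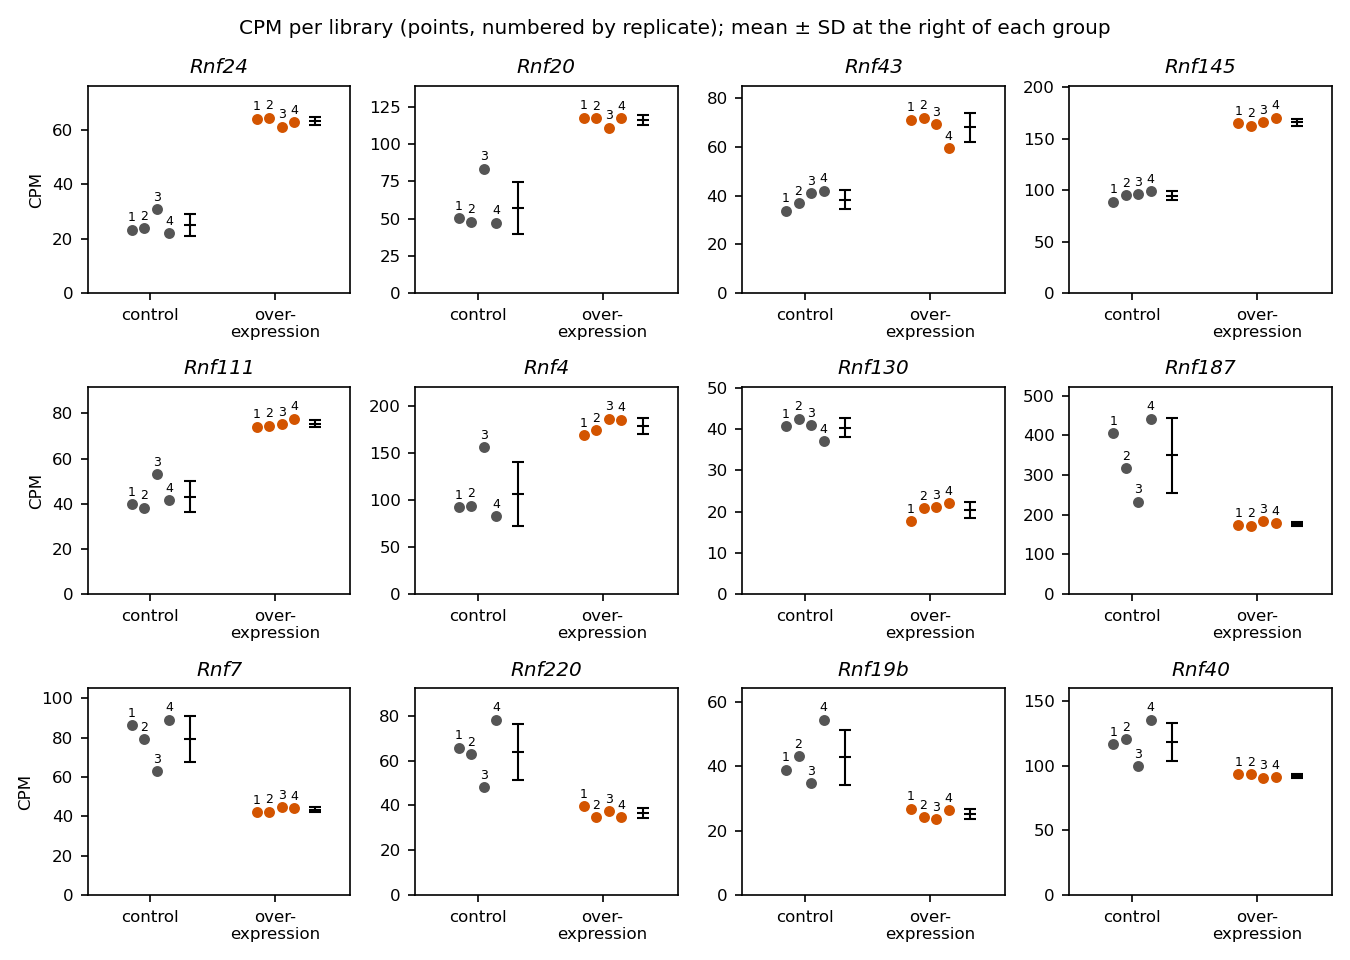
CPM of 12 Rnf genes in each library (vertical axis, from 0), with points numbered by replicate and the mean ± SD beside each group of 4. Rnf24, Rnf20, Rnf43, Rnf145, Rnf111 and Rnf4 are higher and Rnf130, Rnf187, Rnf7, Rnf220, Rnf19b and Rnf40 lower in all 4 overexpression libraries; control library 3 lies apart from the other controls for Rnf20 and Rnf4.

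Among membrane ligases with a protease-associated domain, Rnf43 rose and Rnf130 fell. Of the 9 listed, 6 were tested, and 2 rose and 1 fell (33.3% and 16.7%, against 32.3% and 32.1% of all genes). The higher count was 1 whenever any library but control library 3 was left out. Rnf43 (chromosome 11, 87662722 to 87735539, plus strand) clears Frizzled receptors from the cell surface and so restrains Wnt signalling. It was at 33.8, 36.9, 40.9 and 42.0 CPM in the controls against 71.3, 72.1, 69.3 and 59.5 CPM in overexpression libraries. The groups were far apart, with no control above 42.0 and no overexpression library below 59.5 (log2 fold change 0.82, SE 0.12, adjusted p = 7.00e-05, and 0.60 with the trend on exon length removed). Rnf130 (chromosome 11, 50025346 to 50104758, plus strand), the mouse counterpart of fly Goliath, was at 40.8, 42.6, 41.0 and 37.0 CPM in the controls against 17.7, 20.8, 21.0 and 22.0 CPM in overexpression libraries. Control library 3 lay among the other controls for this gene (log2 fold change -0.98, SE 0.12, adjusted p = 2.03e-05). With the trend on exon length removed the Rnf130 log2 fold change was -0.46 (adjusted p = 0.00938). Rnf128 rose by 0.32 on the log2 scale (SE 0.11, adjusted p = 0.0258), and this call was lost in 9 of 17 alternatives, among them leaving out any library but control library 3, with adjusted p up to 0.071.

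Most of the tested Wnt receptor genes that Rnf43 acts with rose as well. Of 19 listed partners of Rnf43 and Rnf146, 13 were tested, 10 rose and 0 fell, with a median log2 fold change of 0.94 (0.48 with the trend on exon length removed, where 9 were higher and 1 lower). The 10 were 76.9% of those tested, where 32.3% of all genes rose and 32.1% fell. With the trend on exon length removed, 60.6% of all genes were called in either direction. Fzd2, Lrp5 and Axin1 did not pass (0.13, -0.17 and -0.10), and Lrp5 was called lower with that trend removed (-0.64, adjusted p = 0.00468). Without control library 3 the lower count was 2. Lgr4, a receptor of R-spondin, was at 51.4, 58.7, 82.2 and 53.8 CPM in the controls against 145, 170, 177 and 172 CPM in overexpression libraries (log2 fold change 1.43, SE 0.15). Znrf3, the ligase most closely related to Rnf43 in function, was at 47.2, 53.1, 70.4 and 47.2 CPM in the controls against 131, 123, 110 and 117 CPM in overexpression libraries (log2 fold change 1.14, SE 0.14). Both groups were separate for both genes, and with the trend on exon length removed Lgr4 was at 1.28 and Znrf3 at 0.83. Picked out after their values were seen, Lrp6, a Wnt co-receptor, and Fzd4 and Fzd7, Frizzled receptors, rose by 0.99, 1.31 and 0.93 on the log2 scale, or by 0.36, 1.08 and 0.91 once the trend on exon length was removed. The tankyrases Tnks and Tnks2, whose poly-ADP-ribose Rnf146 recognises, were at 0.99 and 0.94, and 0.31 and 0.48 with the trend on exon length removed. Rnf146 itself did not pass (0.24, SE 0.14), and 70.2% of its exon bases lie in exons of Echdc1 on the opposite strand, so its counts are uncertain. Axin2, a common transcriptional target of Wnt signalling, had 0 control and 2 overexpression counts.

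Of 11 ligases of the endoplasmic reticulum membrane, 10 were tested, 3 rose and 3 fell (30% each, near the 32.3% and 32.1% of all genes). The counts were 4 higher and 1 lower with the trend on exon length removed, and 5 higher and 3 lower without control library 3 or with quality weights. Rnf145 (chromosome 11, 44518964 to 44565520, plus strand), which works with Insig proteins in sterol-dependent degradation, was at 88.6, 95.1, 96.0 and 99.2 CPM in the controls against 165, 163, 166 and 170 CPM in overexpression libraries. The values were tight in both groups, control library 3 included, and the gene rose by 0.81 on the log2 scale (SE 0.096, adjusted p = 1.89e-05), or 0.49 with the trend on exon length removed. Rnf170, which ubiquitinates the inositol trisphosphate receptor, was at 13.3, 13.0, 22.8 and 12.6 CPM in the controls against 26.2, 24.8, 26.6 and 27.6 CPM in overexpression libraries (log2 fold change 0.76, SE 0.18), and Rnf180 had a log2 fold change of 0.60. With that trend removed the 2 were at 0.58 and 0.47. Rnf5, which acts in endoplasmic reticulum quality control, was at 89.3, 76.3, 57.8 and 96.0 CPM in the controls against 53.4, 57.8, 50.9 and 57.9 CPM in overexpression libraries. The control library 3 value of Rnf5 lay within the overexpression range. Its log2 fold change of -0.54 (adjusted p = 0.00656) became 0.044 (adjusted p = 0.725) with the trend on exon length removed. Rnf26 and Rnf183 had log2 fold changes of -0.70 and -0.80, of which 58% of the Rnf26 exon bases overlap other genes of the table, and the Rnf183 call was lost with the trend on exon length removed (-0.27, adjusted p = 0.359). Rnf139, a relative of Rnf145 in sterol control, was at 0.25 and did not pass, and 26.2% of its exon bases lie in exons of Tatdn1 and Gm49356.

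Of 13 tested partners of these ligases in endoplasmic reticulum degradation, 2 rose and 6 fell (5 higher and 6 lower without control library 3). The 2 and 6 were 15.4% and 46.2%, against 32.3% and 32.1% of all genes. Insig1, the sterol sensor to which Rnf145 and Rnf139 bind, was at 46.7, 55.1, 54.2 and 37.8 CPM in the controls against 13.5, 13.2, 14.0 and 11.6 CPM in overexpression libraries (log2 fold change -1.89, SE 0.15), so Insig1 fell while Rnf145 rose. Insig2, its paralog, did not pass (0.28). Nploc4, a cofactor of the Vcp segregase, had a log2 fold change of -0.46.

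Among RING-between-RING ligases, Rnf19a rose and its paralog Rnf19b fell, and the other 4 tested members did not pass. The 2 calls were 33.3% of the 6 tested, against 64.4% of all genes. Rnf19a was at 63.7, 65.4, 111 and 59.6 CPM in the controls against 112, 113, 114 and 116 CPM in overexpression libraries (log2 fold change 0.60, SE 0.17, adjusted p = 0.0082). Control library 3 lay just below the overexpression values and the other controls far below. Rnf19b was at 38.9, 43.1, 34.7 and 54.5 CPM in the controls against 26.8, 24.2, 23.5 and 26.4 CPM in overexpression libraries (log2 fold change -0.76, SE 0.15, adjusted p = 5.80e-04). Rnf14 had a log2 fold change of 0.32 (adjusted p = 0.0663), which passed without control library 3 (0.44, adjusted p = 3.31e-04). Rnf31, the catalytic subunit of the linear ubiquitin complex, was at 0.19 and did not pass. Of its 8 listed partners 2 rose and 3 fell (1 higher without any 1 library but control library 3). The 2 and 3 were 25% and 37.5%, against 32.3% and 32.1% of all genes. Otulin and Spata2, which help to take linear chains apart, had log2 fold changes of -0.61 and -0.43. The Otulin call was lost with the trend on exon length removed (-0.10, adjusted p = 0.331).

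In the Rnf114 family and the antiviral ligases, 2 of 5 tested members rose and 1 fell (1 higher and 2 lower with the trend on exon length removed, and 1 higher without control library 2 or overexpression library 2 or 4). As fitted these were 40% and 20%, against 32.3% and 32.1% of all genes. Rnf135 (Riplet), which activates the RNA sensor RIG-I, was at 24.3, 23.8, 19.2 and 26.3 CPM in the controls against 31.4, 31.1, 33.1 and 30.6 CPM in overexpression libraries (log2 fold change 0.43, SE 0.13, adjusted p = 0.00858, and 0.82 with the trend on exon length removed). All 4 overexpression values were above the highest control. Rnf114 had a log2 fold change of -0.50 (SE 0.14), with control library 3 inside the overexpression range at 86.6 CPM. Rnf213, a very large protein with both an ATPase and a RING, was at 155, 137, 169 and 153 CPM in the controls against 190, 191, 184 and 196 CPM in overexpression libraries (log2 fold change 0.31, adjusted p = 0.0169). The call was lost without control library 2 or overexpression library 2 or 4, with no filter and with a replicate block (adjusted p up to 0.0778). With an exon length of 16.9 kb it was the longest tested member, and with the trend on exon length removed its log2 fold change turned to -0.45 (adjusted p = 0.00168). Of the 7 RIG-I pathway partners, 4 rose and 1 fell (3 higher and 0 lower with that trend removed, and 2 higher without control library 1 or 2). The 4 and 1 were 57.1% and 14.3%, against 32.3% and 32.1% of all genes. Ifih1, the other cytosolic RNA sensor, rose from 4.44 ± 0.753 to 18.2 ± 3.14 CPM (SD, n = 4) and Trim25, a further ligase of the pathway, had a log2 fold change of 0.53.

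Among endosomal and receptor sorting ligases, 3 of 5 tested members fell and 1 rose, where 32.1% of all genes fell. With the trend on exon length removed 2 were lower and 2 higher, and 2 were lower with library totals alone or without control library 1, 2 or 4 or overexpression library 2 or 3. Rnf126, a ligase for mislocalised proteins, was at 117, 92.3, 72.7 and 130 CPM in the controls against 69.5, 63.0, 62.9 and 58.7 CPM in overexpression libraries (log2 fold change -0.70, SE 0.16, adjusted p = 0.00226). The call was lost with the trend on exon length removed (-0.18, adjusted p = 0.182). Rnf34 was at 36.9, 39.7, 36.6 and 38.9 CPM in the controls against 26.8, 28.7, 28.2 and 30.2 CPM in overexpression libraries, a small but even difference (log2 fold change -0.42, SE 0.11, and -0.42 with that trend removed). Of the Rnf34 exon bases, 14.1% lie in exons of Kdm2b on the opposite strand, and Kdm2b had a log2 fold change of -0.095. Rnf11, an adaptor of the ubiquitin-editing enzyme A20, rose by a log2 fold change of 0.38 (SE 0.12). Rnf41 had -0.34 (adjusted p = 0.0268), a call lost with library totals alone and without control library 1, 2 or 4 or overexpression library 2 or 3 (adjusted p up to 0.116).

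Of the 19 tested members outside those groups, 7 rose and 6 fell (12 and 7 of 21 tested without control library 3), and they held the member with the largest change. The 7 and 6 were 36.8% and 31.6%, near the 32.3% and 32.1% of all genes. Rnf24 (chromosome 2, 131298064 to 131352892, minus strand), a small membrane RING protein, was at 23.3, 23.9, 30.8 and 22.0 CPM in the controls against 64.2, 64.6, 61.2 and 62.8 CPM in overexpression libraries. All overexpression values lay far above the highest control (log2 fold change 1.34, SE 0.13, adjusted p = 3.50e-06, and 1.10 with the trend on exon length removed). Of its exon bases, 16.5% lie in exons of Pank2 on the opposite strand, and Pank2 did not pass (log2 fold change 0.17, adjusted p = 0.175). Rnf187 was at 406, 317, 233 and 442 CPM in the controls against 174, 172, 184 and 179 CPM in overexpression libraries. The controls were spread widely, with library 3 lowest, and all lay above the overexpression range (log2 fold change -0.98, SE 0.17, adjusted p = 2.74e-04, and -0.53 with the trend on exon length removed). Rnf220 had a log2 fold change of -0.80 (SE 0.14), which was -1.16 with the trend on exon length removed. Rnf10, which ubiquitinates ribosomal proteins, and Rnf44 had -0.47 and -0.39 (-0.79 and -0.49 with that trend removed). Rnf123, which ubiquitinates a cell cycle inhibitor, had 0.50, a call lost with that trend removed (0.24, adjusted p = 0.145), and 16.8% of its exon bases lie in exons of Gmppb and Mst1 on the opposite strand.

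Rnf7, the RING subunit of cullin 5 ligases, fell, as did 4 of the 7 tested genes listed with it. The 4, Nedd8, Elob, Eloc and Rbx1, were 57.1%, where 32.1% of all genes fell. Rnf7 (chromosome 9, 96470937 to 96478675, minus strand) was at 86.3, 79.3, 63.0 and 89.1 CPM in the controls against 42.2, 42.4, 44.5 and 44.2 CPM in overexpression libraries. The groups did not overlap, and the gene fell by 0.87 on the log2 scale (SE 0.12, adjusted p = 6.80e-05). With the trend on exon length removed the value was -0.25 (adjusted p = 0.0268), a call lost when a replicate block was added to that fit (adjusted p = 0.0833). The other calls among those listed genes were 2 that rose. Nedd8, the ubiquitin-like protein that switches cullins on, was at 196, 158, 123 and 212 CPM in the controls against 65.8, 63.6, 68.0 and 68.8 CPM in overexpression libraries (log2 fold change -1.37, SE 0.15, and -0.70 with that trend removed), and Elob, the adaptor Elongin B, had -0.99 (-0.38 with that trend removed). Picked out after their values were seen, Cul5 and Arih2, the scaffold and a helper ligase, rose by log2 fold changes of 0.69 and 0.45, of which Arih2 was no longer called with that trend removed (0.14, adjusted p = 0.23). Among the E2 conjugating enzymes listed, 0 of 20 tested rose and 5 fell. The 5 were 25% of the list, below the 32.1% of all genes that fell, while 32.3% of all genes rose. Among the 5 were Ube2g2 at -1.34 and Ube2a, an E2 of Rnf20, at -0.65 (a call lost with the trend on exon length removed and a replicate block, adjusted p = 0.057). With the trend on exon length removed 10 of these E2 genes were lower and 0 higher, without control library 3 the counts were 8 lower and 1 higher, and with library totals alone 4 lower and 2 higher.

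**Figure D3:**
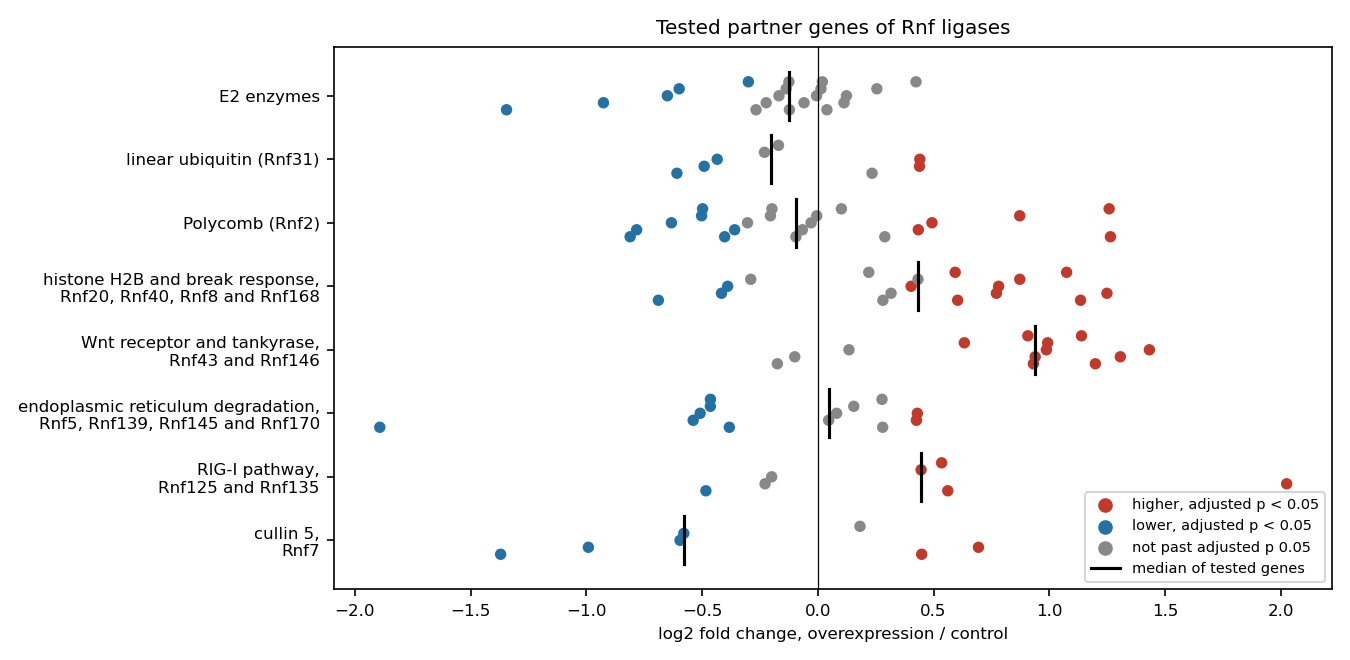
Log2 fold change (horizontal axis) of each tested partner gene in the 8 partner lists, with the list median as a black bar. Wnt receptor and tankyrase genes lie mostly to the right, with 10 of 13 higher and 0 lower, and E2 enzymes have 0 higher and 5 lower of 20. Of all tested genes, 32.3% were higher and 32.1% lower.

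Related members were set against each other as the ratio of their counts within each library. Such a ratio does not depend on how libraries are scaled, but it is not corrected for the trend on exon length given below. The 9 pairs were chosen from known kinship or joint function after their values had been seen. The ratio of Rnf20 to Rnf40 was 0.4315, 0.3975, 0.8358 and 0.3475 in controls and 1.262, 1.256, 1.222 and 1.289 in overexpression libraries. Rnf40 had more reads than Rnf20 in all 4 controls and fewer in all 4 overexpression libraries, and the ratio was 2.66 times higher in the latter. The ratio of Rnf19a to Rnf19b went from 1.86 ± 0.916 to 4.53 ± 0.281 (SD, n = 4), that of Rnf149 to Rnf130 from 1.85 ± 0.111 to 3.31 ± 0.363, and that of Rnf145 to Rnf139 from 2.85 ± 0.672 to 4.08 ± 0.256. In these 4 pairs the groups did not overlap, each with p = 0.029 in a two-sided exact permutation test, the smallest that 4 against 4 allow, and 0.0643 after adjustment over the 9 pairs. Neither value allows for the choice of pairs with their values seen, so the p-values of the pairs describe the separation only. Rnf111 to Rnf4 (0.420 ± 0.0665 and 0.424 ± 0.0152) and Rnf113a2 to Rnf113a1 (2.01 ± 0.602 and 2.12 ± 0.383) differed by less than the spread between libraries. The other 3 pairs, Rnf115 to Rnf126, Rnf185 to Rnf5 and Rnf169 to Rnf168, had overlapping groups (exact permutation p = 0.0571, 0.0857 and 0.171). Without control library 3 the log2 difference of the Rnf20 to Rnf40 ratio was 1.69, against 1.41 with it. In each of the 9 pairs the first gene had the longer exon length. With the trend on exon length removed the log2 fold changes were 0.76 and -0.51 for Rnf20 and Rnf40, and 0.60 and -0.51 for Rnf19a and Rnf19b. They were 0.08 and -0.46 for Rnf149 and Rnf130, and 0.49 and 0.17 for Rnf145 and Rnf139. The part of exon length in the ratios was not tested.

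**Figure D4:**
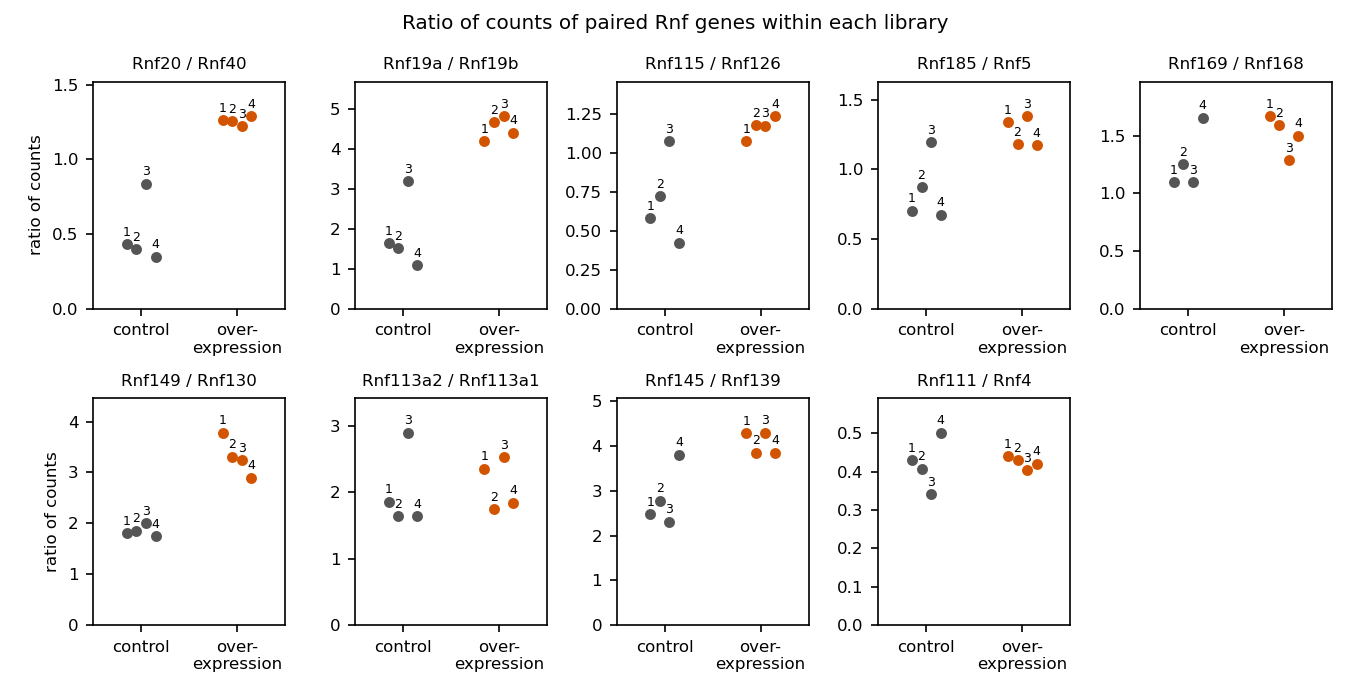
Ratio of the counts of 9 pairs of Rnf genes in each library (vertical axes, from 0), with points numbered by replicate. The ratio of Rnf20 to Rnf40 lies below 1 in every control and above 1 in every overexpression library, while that of Rnf111 to Rnf4 overlaps between the groups.

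Exon length went with the direction of the change. Among the shortest tested members (1223 to 3539 exon bases, 21 genes) 3 rose and 11 fell, with a median log2 fold change of -0.47. Among those of middle length (3641 to 6558 bases, 20 genes) 7 rose and 5 fell, and among the longest (6602 to 16888 bases, 21 genes) 11 rose and 2 fell, with medians of 0.27 and 0.31. All tested genes in the same length ranges had medians of -0.34, 0.040 and 0.41, in the same order as those of the members. Calls among all genes were not counted within these length ranges, so the counts of members have no background to be set against. Across the 62 members, which share the libraries and their scaling, Pearson's r between the log2 fold change and log2 exon length was 0.606 and Spearman's rho 0.549, against an r of 0.322 across 11491 genes, and genes are not independent replicates. With a smooth trend on exon length removed from each library, 20 members were higher and 15 lower. In that fit 60.6% of all genes were called, 48.6% of them higher, against 57.1% higher among the called members. Of the 39 called members, 28 were called the same way, 10 were no longer called and 1, Rnf213, was called the other way, while 6 others were called in addition. The sign of the log2 fold change turned for 12 of the 62 members, 3 of them called before (Rnf213, Rnf5 and Rnf39). Rnf13, Rnf217, Rnf25, Rnf115, Rnf185 and Rnf6 were the gained calls, at -0.48, -0.56, 0.41, 0.38, 0.31 and 0.34. The part of exon length in the differences between the groups was not tested beyond this.

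**Figure D5:**
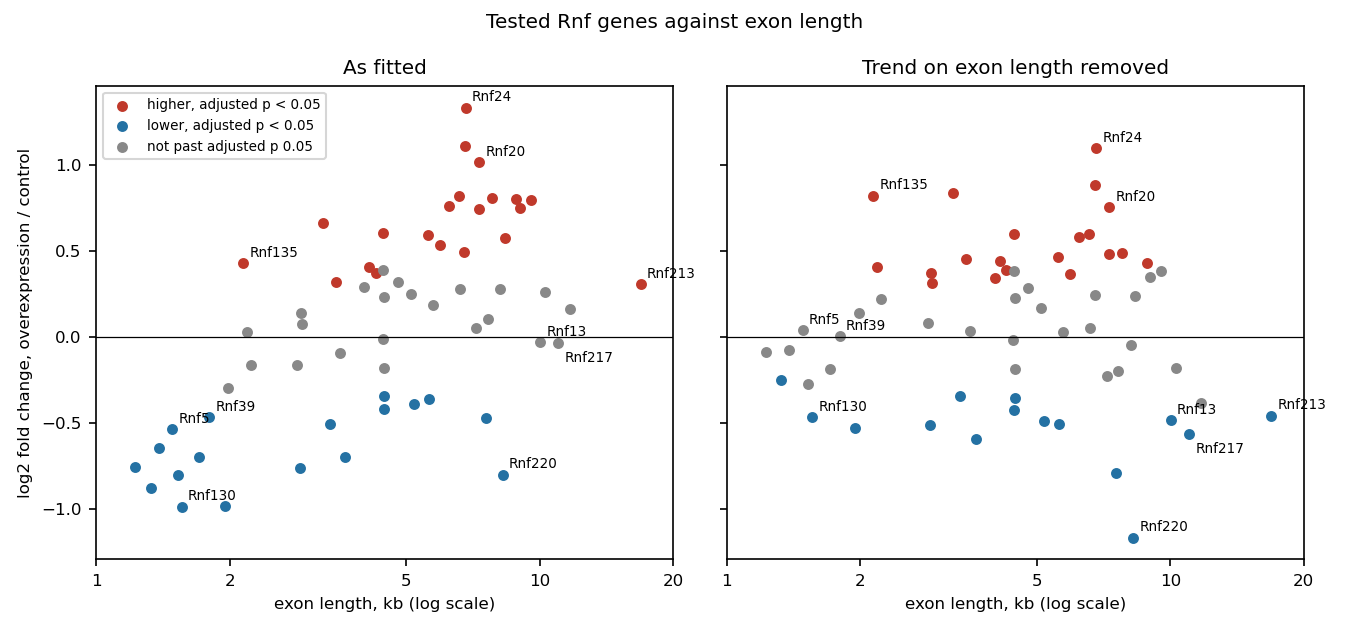
Log2 fold change of the 62 tested Rnf genes (vertical axis) against exon length in kilobases (log axis), as fitted (left) and with the trend on exon length removed (right). On the left most short genes are below 0 and most long genes above it; on the right Rnf213 is below 0 and Rnf5 and Rnf39 are near 0.

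Control library 3 lay apart from the other controls for most members. In 45 of the 62 tested members it was outside the range of the other controls on the side of the overexpression libraries, and in 10 it was outside on the far side. Among the 39 called members the first of these counts was 31. Without it, 64 members were tested, of which 31 were higher and 20 lower, and 77.4% of all genes tested were called. Controls also varied more than overexpression libraries, with the larger SD in controls for 52 of the 62 members. The counts on control library 3 and on the SD were not made over all genes. The first principal component of all genes also put control library 3 apart from the other controls, at -22.2. A principal component of the members alone (80.3% of their variance) put control library 3 at -0.15, with scores of -3.36 to -2.68 for the remaining controls and 2.03 to 2.34 for overexpression.

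Another 15 members had counts but did not pass the filter, and 8 had none. Rnf227 had 14 control and 63 overexpression counts, 4.85 times as many once depth is allowed for (exact 95% interval 2.69 to 9.37, covering counting error). Rnf223 had 25 and 54 counts, a ratio of 2.33 (1.42 to 3.9), and Rnf207 had 8 and 24, a ratio of 3.23 (1.41 to 8.33). Rnf144b, a RING-between-RING ligase, had 13 and 1, a control to overexpression ratio of 12.1 (1.81 to 513). With no filter these 4 were called by edgeR (adjusted p = 0.00136, 0.0281, 0.0471 and 0.0228), where 48.6% of all genes were called. Rnf125, which turns RIG-I over, had 17 and 8 counts and Rnf151 had 22 and 10, neither called. Rnf186 had 5 and 1 counts, Rnf152 had 3 and 0, Rnf150 had 0 and 3, Rnf144a had 2 and 0, Rnf165 had 1 and 1, Rnf208 and Rnf212 each had 1 and 0, and Rnf181 and Rnf212b each had 0 and 1, too few to compare. Rnf112, Rnf133, Rnf138rt1, Rnf148, Rnf17, Rnf182, Rnf222 and Rnf224 had no counts in any library, where 3 counts over a group would be 0.0509 CPM in the controls against 0.0548 CPM in overexpression libraries. Rnf32, known from testis, was the only one of the 5 germline members to be tested. It was at 1.5, 0.912, 2.19 and 1.23 CPM in the controls against 3.77, 2.53, 2.88 and 3.50 CPM in overexpression libraries (log2 fold change 1.11, SE 0.28, adjusted p = 0.00353, and 0.89 with the trend on exon length removed), low levels with no overlap between the groups.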

How the data were processed

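RNA-seq was made from 8 AML-12 libraries, 4 per group, with Trizol RNA and an NEBNext Ultra kit, per the labels' protocols. The authors deposited raw counts per gene symbol. FastQC, STAR, HTSeq and the mm10 build are named in the submitters' processing notes, without versions. The annotation and strand setting are not stated by labels or notes. Symbols were matched to GENCODE M21 (GRCm38), 21926 of 21983, for positions and exon lengths.

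In R 4.3.3, edgeR 4.0.16 (filterByExpr with a minimum count of 10, trimmed-mean scaling, quasi-likelihood test, Benjamini-Hochberg, called at 0.05) was fitted to all genes with group as the only term, and SE is the log2 fold change over the square root of F. Members, role groups and partner lists were chosen with earlier results of these data known. Members named were the called ones with at least 2-fold changes and 1 CPM, up to 3 per role with the smallest p, the 5 most abundant per kilobase, all members without enough counts, and up to 2 called genes per partner list; others are added with their values seen. Alternatives were other scalings and filters, DESeq2 1.42.0, limma-voom 3.58.1, a replicate block, leave-one-out and removal of a lowess trend (span 0.3) on exon length. On simulated counts for control against overexpression (11445 genes), recovery was 50% at 1.5-fold, 98% at 2-fold and 4-fold alike and 100% at 8-fold, with 9 false calls among 181. That simulation changed 49 or 50 genes at each fold, while 7417 of 11520 genes were called in the data. Its rates therefore do not carry over to the calls given here. Pairs of same-group libraries differed by a chi-square per gene of 2.44 to 106, so no library was a copy. Figures used matplotlib 3.10.9. Intervals cover counting error only. Some genes, and the results that need them (1 pair ratio among them), are not reported here.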

Additional observations from a re-analysis of the deposited data

Results flagged for a closer look

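In 9 of 80 groups of 4 values examined for the genes named, the most distant library stood off from the other 3 by more than Dixon's 95% limit, where chance flags about 1 in 20 groups. Control library 3 was the distant one in 6 of them: Rnf20 at 83.35 CPM (others 47.16 to 50.42), Rnf170 at 22.81 (12.6 to 13.27), Rnf19a at 110.5 (59.61 to 65.42), Phc3 at 72.42 (44.23 to 48.55), Trp53bp1 at 55.42 (32.93 to 33.88) and Ifih1 at 5.561 (3.98 to 4.129). In the overexpression group library 3 was low for Rnf20 at 110.9 CPM (others 117.4 to 117.7) and high for Rnf14 at 132.6 CPM (114.9 to 115.2). Control library 1 was low for Usp22 at 106.2 CPM (114.4 to 115.8).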

How the results depend on the processing

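Of the 39 calls among members, 22 (13 higher, 9 lower) held in all 17 alternatives. The counts of 21 higher and 18 lower members stayed within 1.5 times in each alternative, with leave-one-out ranges of 17 to 31 and 17 to 20. The member median of 0.15 was 0.27 with library totals alone (which shifted the median of all genes to 0.128), 0.083 with no filter (77 members), 0.069 with the length trend removed and 0.078 with that trend removed and a replicate block, and 0.117 to 0.211 in leave-one-out fits. These moves exceeded the spread between replicates in the first 4 settings and without control library 2 (0.211). The replicate block left 20 members higher and 18 lower, losing Rnf128 (adjusted p = 0.0506) and Rnf213 (0.0552) and adding Rnf14 (0.0403). With the block 61.9% of all genes were called. Same-numbered libraries did not deviate together (correlations -0.119 to 0.0227). With 4 libraries per group this cannot show whether same-numbered libraries were handled together. The difference in the summed share, 0.0415 percentage points, was 0.0056 with trimmed-mean sizes and 0.0026 with DESeq2 size factors (exact permutation p = 0.286 and 0.514), and 0.0373 to 0.0490 when 1 library was left out, with exact permutation p = 0.0571 without any 1 overexpression library. Without control library 3, 10 of the 62 members gained a call; leaving out other libraries lost calls of Rnf128, Rnf2, Rnf213, Rnf225 and Rnf41. Among members and partners called before or after, signs that turned with the length trend removed, alone and then with a replicate block, were Rnf213 (-0.45, -0.45), Rnf39 (0.0083, 0.0014), Rnf5 (0.044, 0.046), Ube2d2a (-0.43, -0.43), Cyld (-0.13, -0.12), Pcgf1 (0.48, 0.47), Yaf2 (0.38, 0.39), Cdc73 (-0.48, -0.48), Herc2 (-0.14, -0.14) and Bcor (-0.28 alone). The cause of these moves was not tested. Members with few counts give only wide ratios.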
